A study of Homo sapiens with 6 samples.

Results

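The levels of 6 long noncoding RNA genes that are often described as abundant were followed through the 6 libraries of the series, namely MALAT1, NEAT1, TUG1, NORAD, KCNQ1OT1 and OIP5-AS1. They were picked by name from the gene tables, with their measured levels known, and make up 6 of 28307 gene symbols. The level was the deposited TPM (transcripts per 1000000, a length-corrected share of a library) summed over all rows of a symbol. Beside it, 147 transposable element (TE) loci inside the 6 genes were read on the strand of the gene, which gave a separate count of fragments within each RNA.

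The cells were SW480, an established human colon adenocarcinoma line, stably transduced with a lentivirus under puromycin selection. The 3 control lines expressed the fluorescent protein Clover from pLENTI CMV, and the 3 other lines expressed Z18trunc, a truncated ZC3H18, from the same type of vector. The CMV promoter and the endogenous ZC3H18 gene were thus present in both groups, and the truncated protein was added to the normal one rather than replacing it. ZC3H18 itself was listed at 51.3 to 61.8 TPM in Clover and 739 to 798 TPM in Z18trunc (log2 change 3.72, SE 0.09, limma adjusted p = 3.2e-05). RNA was selected for poly(A) tails and libraries were stranded. Aligned fragments ran from 18226033 to 22463310 per library. Of 10 colon epithelial carcinoma markers, 8 had a mean TPM of at least 1, whereas CDX1 and LGR5 were listed at 0 in every library. Their summed TPM ranged from 23509 to 25074 in Clover and from 23079 to 24202 in Z18trunc. The summed markers of blood, fibroblasts, endothelium and melanocytes stayed at or below 4.48 TPM in each library.

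MALAT1 is a nuclear RNA concentrated in splicing speckles, and its mature end is closed by a triple helix rather than a poly(A) tail. NEAT1 is made in a short polyadenylated form and a long form that ends in the same kind of triple helix and builds paraspeckles. TUG1 is a spliced RNA that is often found with retained introns in the nucleus. NORAD is a mostly cytoplasmic RNA that binds the Pumilio proteins. KCNQ1OT1 is an unspliced, imprinted antisense RNA that silences neighbouring genes on the paternal chromosome, and OIP5-AS1, also called Cyrano, binds the microRNA miR-7 and is largely cytoplasmic. Nuclear and cytoplasmic RNA were not separated here, so the location of these RNAs was not measured. ZC3H18 is a zinc-finger protein that links capped RNA to nuclear decay by the RNA exosome, and the comparison asks whether these RNAs differ in level when its truncated form is expressed.

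A few of the TE loci behind the second readout are shown first, from TUG1, where loci near its ends are compared, from MALAT1, where the readouts differed in 1 library, and from NEAT1 as an example of a locus in the long form. Each is printed 5′ to 3′ on the gene strand from hg38, with the annotated repeat in capitals and flanking bases in lower case. The pair from TUG1 holds the locus that passed the test and the locus with most fragments in the gene, near opposite ends of the RNA.

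TUG1 Charlie4z, chr22:30970085-30970283, plus strand: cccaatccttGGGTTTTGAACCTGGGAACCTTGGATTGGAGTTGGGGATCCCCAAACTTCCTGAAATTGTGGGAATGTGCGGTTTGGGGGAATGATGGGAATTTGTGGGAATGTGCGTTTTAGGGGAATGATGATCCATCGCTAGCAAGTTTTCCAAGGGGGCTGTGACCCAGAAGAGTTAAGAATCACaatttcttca

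TUG1 MLT1K, chr22:30978422-30978613, plus strand: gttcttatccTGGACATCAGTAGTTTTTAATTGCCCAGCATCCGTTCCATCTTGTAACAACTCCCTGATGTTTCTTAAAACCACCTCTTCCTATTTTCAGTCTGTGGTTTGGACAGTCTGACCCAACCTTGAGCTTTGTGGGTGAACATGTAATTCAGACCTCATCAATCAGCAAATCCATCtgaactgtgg

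The Charlie4z locus is a DNA transposon of 179 bases that starts 0.88 kb from the gene start, and the MLT1K locus is an LTR fragment of 172 bases that starts 9.22 kb from it. MALAT1 and NORAD each contain a single TE locus with fragments, so their second readout rests on 1 locus each, an L1M4c in MALAT1, which follows, and an AluSc in NORAD.

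MALAT1 L1M4c, chr11:65499652-65499935, plus strand: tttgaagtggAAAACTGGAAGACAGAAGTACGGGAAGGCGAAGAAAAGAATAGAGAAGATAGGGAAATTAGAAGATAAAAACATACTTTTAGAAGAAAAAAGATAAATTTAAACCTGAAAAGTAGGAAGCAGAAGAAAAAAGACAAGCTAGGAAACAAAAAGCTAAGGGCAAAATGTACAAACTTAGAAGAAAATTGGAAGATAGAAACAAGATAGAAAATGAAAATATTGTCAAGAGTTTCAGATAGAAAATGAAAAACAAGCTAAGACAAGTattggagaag

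The L1M4c stretch of MALAT1 is 54.5% A and 76.5% purine, with a GC content of 30.3%. The AluSc of NORAD (chr20:36047011-36047299) diverges by 9% from its consensus. The following locus is the second of NEAT1 by fragments and lies in the part that the long form alone covers.

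NEAT1 MIR, chr11:65440942-65441163, plus strand: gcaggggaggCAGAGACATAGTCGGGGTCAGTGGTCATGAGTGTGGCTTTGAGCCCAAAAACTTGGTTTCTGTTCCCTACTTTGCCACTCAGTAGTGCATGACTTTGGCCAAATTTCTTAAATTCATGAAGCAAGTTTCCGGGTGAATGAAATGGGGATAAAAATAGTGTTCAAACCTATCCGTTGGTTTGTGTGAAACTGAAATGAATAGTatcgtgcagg

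Fragments that map to more than 1 copy of a repeat are shared out by estimation, and uniquely mapped fragments were 76.6% of the estimated count in NORAD, 72.4% in OIP5-AS1 and 63.3% in MALAT1. In NEAT1, TUG1 and KCNQ1OT1 the share ran from 76.0% to 78.9%.

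The levels of the 6 RNAs spanned a wide range. NORAD had the highest mean over the 6 libraries at 175 TPM, followed by MALAT1 at 138, NEAT1 at 79.5, TUG1 at 22.2, OIP5-AS1 at 10.6 and KCNQ1OT1 at 0.327 TPM. NORAD exceeded MALAT1 in 4 of 6 libraries and MALAT1 exceeded NEAT1 in 5 of 6, so the order of these neighbours was not the same in each library. The lower steps, from NEAT1 down to KCNQ1OT1, held in all 6 libraries. RNA was selected for poly(A) tails, which mature MALAT1 and long NEAT1 lack, so their TPM need not rank them by amount in the cells. How much of either RNA the selection kept was not measured. NORAD stood above 96.5% of all symbols, TUG1 above 80.8% and OIP5-AS1 above 72.5%. KCNQ1OT1 stood above 47.2% of symbols, so the word abundant does not describe its TPM in these cells. The deposited span of KCNQ1OT1 is 91.7 kb, and a level per length spreads its fragments over all of that.

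**Figure D1:**
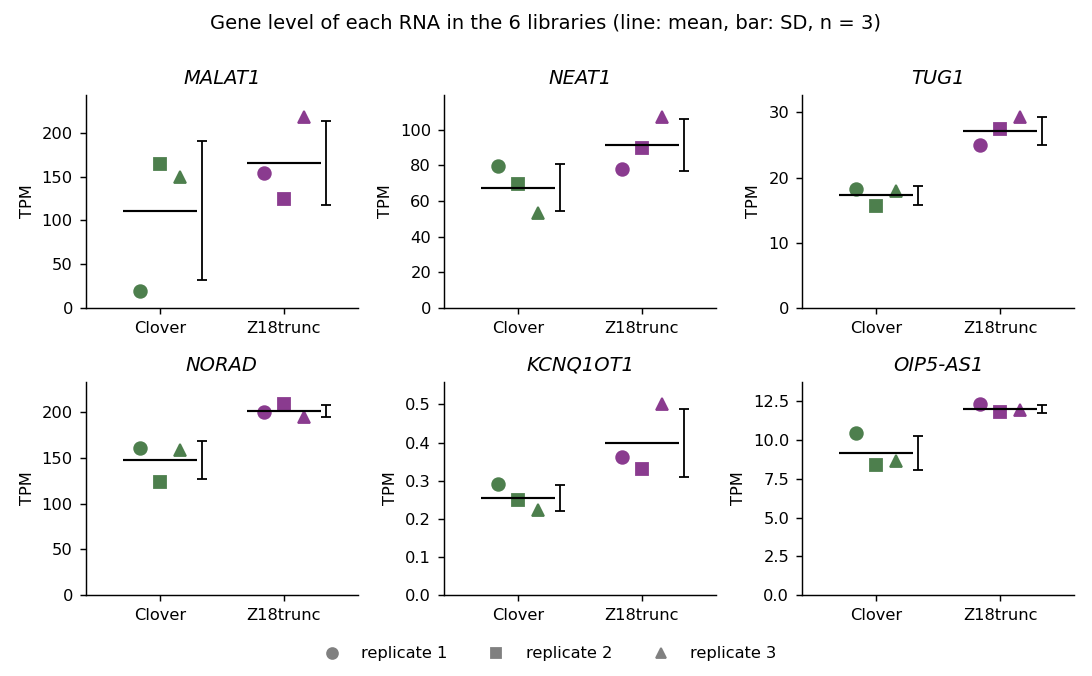
TPM of each RNA (vertical axis, from 0, with its own scale in each panel) in the 3 Clover and 3 Z18trunc libraries, with the mean as a line and the SD as a bar. The groups are apart for TUG1, NORAD, KCNQ1OT1 and OIP5-AS1, and Clover replicate 1 lies far below the other libraries for MALAT1 at 19.9 TPM.

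TUG1, NORAD and OIP5-AS1 had higher TPM in all 3 Z18trunc libraries than in any Clover library, as did KCNQ1OT1 at its low level. None of the 5 tested RNAs passed the test over all genes, and KCNQ1OT1 was too low to enter it. TUG1 (chr22:30969211-30979394) was at 18.3, 15.7 and 17.9 TPM in Clover replicates 1 to 3 and at 25.0, 27.4 and 29.2 TPM in Z18trunc replicates 1 to 3. The lowest Z18trunc value thus lay above the highest Clover value. On the log2(TPM + 1) scale, which is used for every TPM change here and understates changes of low genes, TUG1 was 0.63 higher (SE 0.09, 95% interval 0.40 to 0.85). The limma adjusted p over 13300 genes was 0.0773, and it was 0.0437 when the fit included an intensity trend. That trend fit called 60 genes, where the fit reported called 2. The other settings run gave TUG1 limma adjusted p-values from 0.0925 to 0.205.

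NORAD (chr20:36045618-36050960, minus strand) was at 161, 124 and 159 TPM in Clover and at 201, 209 and 195 TPM in Z18trunc. The Z18trunc libraries were close together, with an SD of 6.93 TPM against 20.9 TPM in Clover. The change was 0.45 (SE 0.11, limma adjusted p = 0.0835). OIP5-AS1 (chr15:41283990-41313338) was at 10.4, 8.41 and 8.61 TPM in Clover and at 12.3, 11.8 and 11.9 TPM in Z18trunc. The groups did not overlap, and the change was 0.36 (SE 0.09, limma adjusted p = 0.0835). After quantile normalization, which makes the distributions of all libraries alike, the OIP5-AS1 change was 0.18, and those of NORAD and TUG1 were 0.44 and 0.48.

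NEAT1 (chr11:65422798-65445538) was at 79.6, 69.7 and 53.4 TPM in Clover and at 77.8, 89.8 and 107 TPM in Z18trunc. The lowest Z18trunc library lay just under the highest Clover library, so the groups overlapped. The change was 0.44 (SE 0.17, limma adjusted p = 0.161). KCNQ1OT1 (chr11:2608328-2699998, minus strand) was at 0.292, 0.250 and 0.224 TPM in Clover and at 0.363, 0.331 and 0.500 TPM in Z18trunc. The groups did not overlap, although every value was below the mean TPM of 1 required for the test. With that limit lowered to 0.1 its change was 0.15 (SE 0.08, limma adjusted p = 0.284).

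MALAT1 (chr11:65497738-65506512) was at 19.9, 164 and 149 TPM in Clover and at 154, 124 and 218 TPM in Z18trunc. Clover replicate 1 was low and the other 5 libraries overlapped between groups. The change was 1.01 with an SE of 0.77 (limma adjusted p = 0.428), and it was 0.04 without Clover replicate 1. The deposited read coverage of the gene, divided by aligned fragments and multiplied by 1000000, was also low in that library, at 2.15 against 13.7 to 23.8 in the other libraries.

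The fragments of the L1M4c locus inside MALAT1, printed above, did not share this low value. They numbered 1234, 1630 and 1131 in Clover and 1342, 1008 and 1947 in Z18trunc. As CPM, the count per 1000000 aligned fragments, these were 54.9, 85.2 and 57.6 in Clover and 59.8, 55.3 and 92.7 in Z18trunc, so Clover replicate 1 lay beside 3 other libraries. The ratio of TPM to CPM of the locus was 0.362 in Clover replicate 1 and 1.93 to 2.59 in the others. Among 7968 genes averaging at least 10 TPM, Clover replicate 1 had 3 genes below 0.25 times the lowest other library, namely MALAT1, TUBA4A and KTI12. Each of the other libraries had 0 or 1 such gene. This count was not planned, and it includes MALAT1, whose low value was already known. What made the readouts of MALAT1 differ in this library was not tested.

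**Figure D2:**
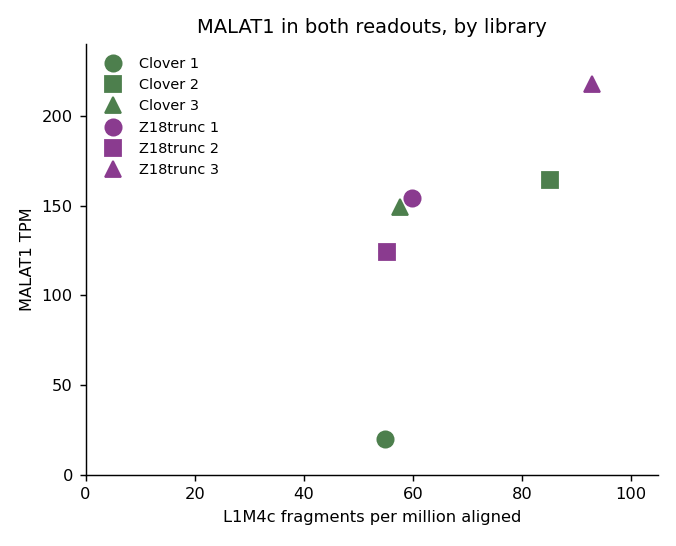
MALAT1 TPM (vertical axis) against fragments of its L1M4c locus in CPM (horizontal axis), 1 point per library. Clover replicate 1 is at 54.9 on the horizontal axis, beside Z18trunc replicate 2 at 55.3, and at 19.9 TPM, where Z18trunc replicate 2 is at 124 TPM.

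Across the tested genes, the TPM fit called 0.015% at an adjusted p under 0.05, and 0 of the 5 tested RNAs were among them. At an unadjusted p under 0.05, limma placed 4 of these 5 (NEAT1, TUG1, NORAD and OIP5-AS1) higher and 0 lower, where 25.6% of all genes were higher and 2.9% lower. Groups were apart with Z18trunc higher for 3 of the 5, against 30.1% of all tested genes, and for KCNQ1OT1, against 26.2% of genes averaging at least 0.1 TPM. None of the 6 had all Z18trunc libraries lower, as 6.73% of tested genes did. The median gene was itself 0.11 higher in Z18trunc. TUG1 exceeded that median by 0.52, NORAD by 0.34, NEAT1 by 0.33 and OIP5-AS1 by 0.26. After quantile normalization the median gene moved to -0.01, so the shift of all genes depended on the scaling. As these were bulk libraries, a higher share of cells with an RNA and more RNA per cell cannot be told apart.

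The TE fragments gave a second view from the same libraries, over the part of each RNA that holds repeats. Estimated fragment counts were summed over TE loci that lie inside the gene span and are read on the gene strand. NEAT1 summed to 163, 143 and 145 fragments in Clover and to 177, 188 and 352 in Z18trunc. All 3 Z18trunc libraries were higher in CPM, with Z18trunc replicate 3 far above the others at 16.8 CPM against 7.88 and 10.3. The log2 change was 0.66 (SE 0.18, edgeR adjusted p = 0.0578) and was 0.30 without Z18trunc replicate 3.

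TUG1 summed to 286, 229 and 227 fragments in Clover and to 370, 296 and 380 in Z18trunc, or 12.1 ± 0.593 and 16.9 ± 1.01 CPM (SD, n = 3 each). The groups did not overlap, and the change was 0.49 (SE 0.12, edgeR adjusted p = 0.0538). KCNQ1OT1 summed to 116, 123 and 97 fragments in Clover and to 163, 118 and 217 in Z18trunc. Its groups were barely apart, at 6.43 CPM for the highest Clover and 6.47 CPM for the lowest Z18trunc library, and the change was 0.55 (SE 0.17, edgeR adjusted p = 0.106). In NORAD the AluSc locus held 627, 474 and 552 fragments in Clover and 809, 617 and 660 in Z18trunc. The change was 0.33 (SE 0.10, edgeR adjusted p = 0.10), and the 3 Z18trunc libraries were higher in CPM.

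OIP5-AS1 summed to 233, 168 and 160 fragments in Clover and to 250, 212 and 241 in Z18trunc, with a change of 0.32 (SE 0.13, edgeR adjusted p = 0.221). MALAT1 changed by 0.07 (SE 0.14, edgeR adjusted p = 0.817), and its groups overlapped. In the exact two-sided permutation test of mean log2 CPM, p was 0.1 for NEAT1, TUG1, NORAD, KCNQ1OT1 and OIP5-AS1 and 0.6 for MALAT1. With 3 libraries against 3, 0.1 is the smallest p that this test allows.

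**Figure D3:**
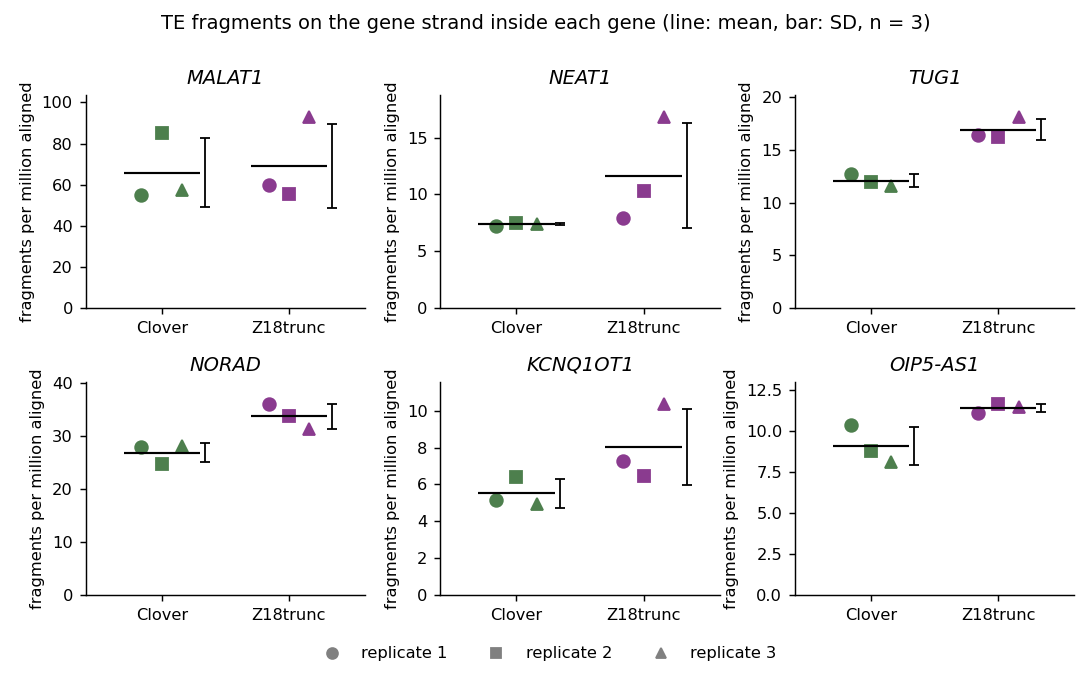
TE fragments on the gene strand inside each RNA in CPM (vertical axis, from 0, with its own scale in each panel), with the mean as a line and the SD as a bar. Z18trunc libraries are all higher except for MALAT1, and Z18trunc replicate 3 stands out for NEAT1 at 16.8 CPM.

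Of all gene bodies tested this way, 0.305% were called, and 0 of the 6 RNAs were. Groups were apart with Z18trunc higher in 5 of the 6, where 19.3% of all tested gene bodies had such a separation. An unadjusted edgeR p under 0.05 was given to those 5, all higher, where 16% of gene bodies had one and were higher and 0.863% lower. The median gene body was 0.23 higher in Z18trunc on this scale, which kept aligned fragments as library size. TMM scaling of edgeR brought that median to 0.01 and the members to 0.42 for NEAT1, 0.32 for KCNQ1OT1, 0.27 for TUG1, 0.11 for NORAD and OIP5-AS1 and -0.16 for MALAT1. With uniquely mapped fragments only, NEAT1, TUG1 and NORAD passed at edgeR adjusted p-values of 0.0188, 0.0146 and 0.0381, with changes of 0.67, 0.54 and 0.38. Leaving out Z18trunc replicate 1 also made NEAT1 and TUG1 pass, at adjusted p-values of 0.0052 and 0.0402. The uniquely mapped fit called 189 gene bodies in all and the fit without Z18trunc replicate 1 called 216, where the fit reported called 35. With TMM scaling the edgeR adjusted p-values were 0.253 for NEAT1, 0.435 for TUG1 and 0.804 for NORAD.

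**Figure D4:**
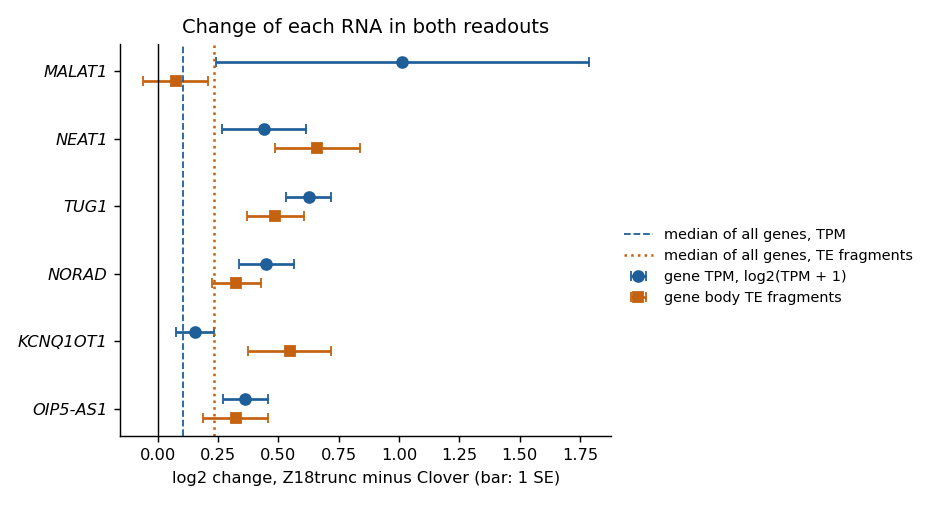
Log2 change from Clover to Z18trunc of each RNA (horizontal axis) in gene TPM (circles) and in TE fragments (squares), with bars of 1 SE and the median of all genes in each readout as a vertical line. The readouts are furthest apart for MALAT1, at 1.01 and 0.07.

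Fragments on the opposite strand were summed in the same way. They can include RNA from a gene on the other strand. They were 0 in TUG1, and 2 and 1 over all libraries in NEAT1 and NORAD, beside 1788, 1168 and 3739 on the gene strand. A count of 0 allows up to 3 fragments, or 0.134 to 0.165 CPM depending on the library, for counting error only. MALAT1 had 11, 21 and 9 opposite-strand fragments in Clover and 2, 5 and 13 in Z18trunc, which were 0.73% of its fragments and overlapped between groups (exact permutation p = 0.3). The antisense RNA TALAM1 is known at this locus.

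KCNQ1OT1 and OIP5-AS1 carried more. KCNQ1OT1 lies inside KCNQ1 on the other strand, and opposite-strand fragments were 9.64% of its total, with 14, 11 and 13 in Clover and 22, 12 and 17 in Z18trunc (exact permutation p = 0.2). The groups overlapped. In OIP5-AS1 they were 16.7% of the total, with 40, 30 and 38 in Clover and 58, 44 and 43 in Z18trunc. These did not overlap in CPM (exact permutation p = 0.1), and the log2 ratio was 0.41, beside 0.33 on the gene strand.

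Single TE loci were also read one by one, with their position in the gene. Of 147 loci with a fragment on the gene strand, 46 reached the 30 counts needed for a test, and 1 passed. Over the whole table, 0.129% of 24809 tested entries passed. The 147 loci comprised 69 LINE, 57 SINE, 11 DNA transposon and 10 LTR loci, and their divergence from consensus ran from 6% to 39.4%. Among the 46, 40 changes were above 0 and 6 below, and edgeR gave an unadjusted p under 0.05 to 11 higher loci and 0 lower ones. Over all entries those unadjusted shares were 7.88% higher and 1.68% lower. The median change was 0.62 over the 46 loci and 0.17 over all entries. The 46 tested loci are pieces of 6 RNAs, with 15 in NEAT1, 11 in OIP5-AS1, 10 in KCNQ1OT1 and 8 in TUG1. Loci of 1 RNA in the same libraries are not independent of each other, so these counts are a description only. The limit of 30 is a sum over both groups, so a locus low in 1 group can reach it through the other. L1PB3 of NEAT1 reached it with 3, 0 and 1 fragments in Clover and 5, 9 and 14 in Z18trunc. The short L1MB7 locus of NEAT1 at 17.3 kb reached it with 4, 7 and 8 in Clover and 2, 2 and 7 in Z18trunc. The counts and the median above include such loci. The share of all entries above 0 is not given here.

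The locus that passed was Charlie4z in TUG1 (chr22:30970095-30970273), printed above. It held 39, 18 and 19 fragments in Clover and 80, 48 and 55 in Z18trunc. The lowest Z18trunc library was above the highest Clover library both in fragments and in CPM. The log2 change was 1.26 (SE 0.26, edgeR adjusted p = 0.0339). With TMM scaling the change was 1.09 and the adjusted p 0.138. The call was also lost without any 1 library other than Clover replicate 1, at adjusted p-values of 0.145 and 0.131 without Clover replicates 2 and 3, and 0.224, 0.0957 and 0.0805 without Z18trunc replicates 1, 2 and 3. The change itself stayed between 1.09 and 1.34 in these 5 omissions. The locus lies in exon 1 of the canonical GENCODE transcript.

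The loci near the other end of TUG1 gave different values. The MLT1K locus printed above held 97, 87 and 106 fragments in Clover and 96, 92 and 111 in Z18trunc, with a change of 0.03 (SE 0.17, edgeR adjusted p = 0.969). Its group values overlapped and were nearly the same. The second MLT1K locus, 9.46 kb from the start, held 48, 61 and 38 fragments in Clover and 61.5, 50 and 71 in Z18trunc (change 0.30, SE 0.22). Charlie15a at 6.02 kb, in the first part of exon 3, held 44, 38 and 30 fragments in Clover and 61, 50 and 76 in Z18trunc (change 0.73, SE 0.22, edgeR adjusted p = 0.255).

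Summed by canonical exon, the TUG1 loci of exon 1 went from 1.85 ± 1.02 to 4.06 ± 0.386 CPM (SD, n = 3 each) and those of exon 3 from 9.39 ± 0.748 to 11.3 ± 1.09 CPM (SD, n = 3 each). The log2 ratio of the means was 1.13 for exon 1 and 0.27 for exon 3. The ratio of exon 1 to exon 3 fragments was 0.342, 0.117 and 0.146 in Clover and 0.401, 0.399 and 0.288 in Z18trunc. Clover replicate 1 lay above Z18trunc replicate 3, so this ratio overlapped between groups. The split by exon was made after the values were seen and was not tested.

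The loci of NEAT1 were also read by position. All of its 25 TE loci lie beyond the end of the short transcripts, which stop 3.72 kb from the start, while the first TE locus begins at 6.19 kb. The TE fragments of NEAT1 therefore count the long form only, as far as the poly(A) selection kept it. Its share against the short form could not be formed. Between 5 and 10 kb from the start, 8 loci held 23, 5 and 18 fragments in Clover and 33, 40 and 67 in Z18trunc. These were 0.734 ± 0.413 and 2.29 ± 0.864 CPM (SD, n = 3 each), the means had a log2 ratio of 1.64, and the groups did not overlap. Between 10 and 15 kb, 5 loci held 20, 9 and 12 fragments in Clover and 20, 20 and 55 in Z18trunc. Their log2 ratio of means was 1.22, and the groups were barely apart, at 0.8903 CPM in Clover replicate 1 and 0.8907 CPM in Z18trunc replicate 1. Between 15 and 20 kb, 10 loci held 115, 124 and 109 fragments in Clover and 117, 125 and 220 in Z18trunc. There the groups overlapped and the log2 ratio of means was 0.39. Beyond 20 kb, 2 loci held 36 fragments in all, the groups overlapped and the log2 ratio was 0.27. These stretches were not planned or tested, and like stretches of other genes were not read beside them.

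The 3 NEAT1 loci with most fragments all lie between 15 and 20 kb from the start. L1MB7 held 26, 26 and 27 fragments in Clover and 29, 37 and 66.5 in Z18trunc (change 0.74, SE 0.29, edgeR adjusted p = 0.408), with Z18trunc replicate 3 highest. MIR, printed above, held 21, 11 and 14 fragments in Clover and 16, 18 and 39 in Z18trunc (change 0.66, SE 0.36). AluSx3 held 11, 29 and 12 fragments in Clover and 19, 10 and 16 in Z18trunc, with a change of -0.24 (SE 0.40).

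**Figure D5:**
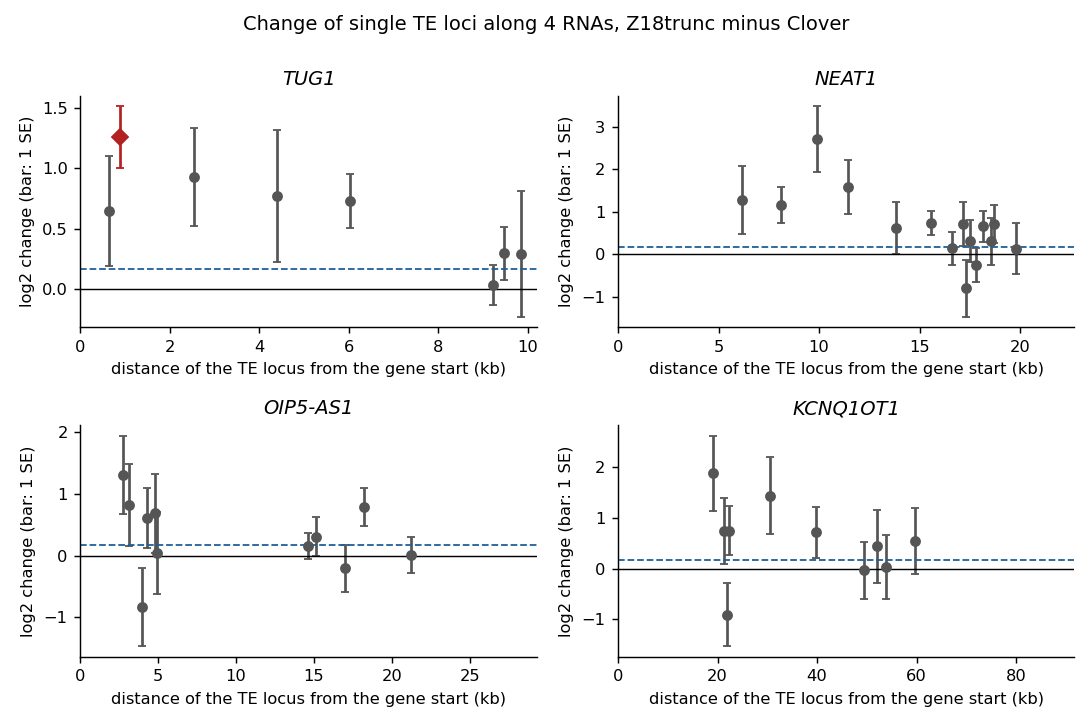
Log2 change from Clover to Z18trunc of each tested TE locus (vertical axis, bars of 1 SE) against its distance from the gene start in kb (horizontal axis), with the median of all tested entries as a dashed line. The diamond is Charlie4z in TUG1 at 1.26, the only locus of these 4 genes that passed, and the 3 TUG1 loci beyond 9 kb lie between 0.03 and 0.30.

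The first and the second part of each gene span, split at its midpoint, were compared in the same way in all genes with at least 30 TE fragments in each. In NEAT1 the first part held 28, 9 and 19 fragments in Clover and 35, 45 and 79 in Z18trunc, and the second 135, 134 and 126 in Clover and 142, 143 and 273 in Z18trunc. Their log2 changes were 1.51 and 0.48. TUG1 changed by 1.05 in the first and 0.27 in the second part, OIP5-AS1 by 0.58 and 0.22, and KCNQ1OT1 by 0.64 and 0.32. Over 6552 genes the median changes were 0.27 and 0.24, and the median difference was 0.04, with quartiles of -0.30 and 0.39. The difference of 1.03 in NEAT1 was above that of 95.8% of these genes, and the 0.78 of TUG1 above that of 91.2%. OIP5-AS1 at 0.36 and KCNQ1OT1 at 0.32 were above 73.3% and 70.2%. This comparison was chosen after the loci had been seen and is a description without a test. Without Clover replicate 2 the differences were 0.67 in NEAT1, 0.47 in TUG1, 0.39 in OIP5-AS1 and 0.0041 in KCNQ1OT1, so that of KCNQ1OT1 rested on this library. In that setting NEAT1 was above 86.8% of genes, TUG1 above 78.3%, OIP5-AS1 above 73.7% and KCNQ1OT1 above 47.1%. The standing of NEAT1 and TUG1 among all genes thus also depended on this library.

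OIP5-AS1 and KCNQ1OT1 spread their fragments over more loci. In OIP5-AS1, 31 of 45 loci were SINEs, and these held 7.70 ± 0.777 CPM in Clover and 9.39 ± 0.26 CPM in Z18trunc (SD, n = 3 each). Its AluSx1 locus, 14.6 kb from the start, held 43, 47 and 43 fragments in Clover and 56, 44 and 50 in Z18trunc (change 0.16, SE 0.22). AluSz6 at 21.2 kb from the start changed by 0.01 (SE 0.29) and AluSx at 15.1 kb by 0.31 (SE 0.32). An exon of at least 1 annotated GENCODE transcript overlaps 34 of the 45 loci, and these held 1241 of the 1264 fragments. Of the 45, 0 lie wholly in an exon of the canonical transcript and 3 cross the end of one.

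In KCNQ1OT1, 41 of 64 loci were LINEs, and 48 of the 64 repeats had the orientation of the RNA. LINE fragments went from 4.36 ± 0.803 to 5.95 ± 1.49 CPM and SINE fragments from 0.502 ± 0.118 to 0.973 ± 0.279 CPM (SD, n = 3 each). The LINE groups overlapped and the SINE groups did not, although the 11 SINE loci held only 92 fragments in all. How often SINE sums of other genes lie apart was not measured, so this does not set the SINE loci apart. Of all gene bodies tested, 19.3% had Z18trunc higher without overlap. L1MD3 held 13, 7 and 2 fragments in Clover and 9, 12 and 15 in Z18trunc (change 0.71, SE 0.51), and Tigger18a 9, 8 and 4 in Clover and 14, 8 and 14 in Z18trunc (change 0.75, SE 0.48). L1M2 at 49.4 kb from the start changed by -0.03 (SE 0.57). Most of the fragments came from the first 60 kb of the gene, with 260, 289 and 249 over all libraries in its consecutive 20 kb stretches. The next 20 kb held 29 fragments and the remainder 7.

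The transcript sequences were searched for 1 motif. NORAD is known for repeated Pumilio sites, and the motif TGTANATA was counted in 1 GENCODE transcript of each gene. The NORAD transcript of 5401 bases held 15 matches on its own strand and 1 on the opposite strand. The long NEAT1 transcript held 6, TUG1 held 2, the 91667-base KCNQ1OT1 transcript held 9, and MALAT1 and OIP5-AS1 held 0. Per kb, NORAD had 2.78 matches, more than 99.9% of 26886 other lncRNA transcripts of at least 1000 bases. Of 488 other lncRNA transcripts between 4800 and 6000 bases, 48.2% held at least 1 match and the highest held 16. A match is a description of letters and not of binding.

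The gene groups that work with these RNAs were read from the same TPM fit, which called 0 genes in any of the lists. The Pumilio and NORAD partner genes had 10 of 13 changes above 0, and limma gave an unadjusted p under 0.05 to 8 higher and 1 lower, where 25.6% of all tested genes were higher and 2.9% lower. Their median change was 0.28, where the median over all genes was 0.11. By level the leading genes were the splicing factor PRPF19, at 372 ± 15.3 and 373 ± 5.26 TPM (SD, n = 3 each), and the export factor ALYREF, at 284 and 269 TPM.

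Nuclear speckle genes, whose proteins gather where MALAT1 does, had 15 of 16 changes above 0 and a median of 0.24, with 5 higher and 0 lower unadjusted. That median was 0.13 without Clover replicate 2 and 0.15 after quantile normalization. U2AF2 and RNPS1, with the highest levels, changed by 0.03 and 0.04. Paraspeckle protein genes had 15 of 18 changes above 0 and a median of 0.16, with 6 higher and 0 lower unadjusted. Both counts stand beside the 25.6% of all tested genes that were higher and the 2.9% that were lower at this p. The median change over all tested genes was 0.11, so a count of changes above 0 does not by itself set a list apart. NONO, a core paraspeckle protein that binds NEAT1, changed by 0.09 (SE 0.08), and HNRNPK by 0.19 (SE 0.09). Groups were apart with Z18trunc higher in 10 of the 18 paraspeckle, 6 of the 16 speckle and 9 of the 13 Pumilio genes, beside 30.1% of all tested genes.

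Genes that lie near the 6 RNAs were listed separately. In the imprinted neighbourhood of KCNQ1OT1, 15 of 16 listed genes were in the gene tables, 11 were tested, 5 changes were above 0 and 6 below, and the median was -0.02. CD81 and CARS1, with the highest levels there, changed by -0.12 and 0.13. CDKN1C, a growth inhibitor that the RNA is known to silence in cis and named after its value was seen, was at 29.0 TPM in Clover and 29.8 TPM in Z18trunc (change 0.03, SE 0.09). Of the genes flanking the other 5 members, 15 were tested, 9 changes were above 0 and 6 below, with a median of 0.01. CPNE1, beside NORAD, changed by -0.04 (SE 0.06).

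Other widely studied long noncoding RNAs gave a wider comparison. Of 39 in the gene tables, 29 were tested, with 19 changes above 0, 10 below and a median of 0.11, the same as over all genes. An unadjusted limma p under 0.05 was found for 7 higher and 0 lower of the 29, a share near the 25.6% of all tested genes that were higher. GAS5, the host of several small nucleolar RNAs, was at 426 TPM in Clover and 405 TPM in Z18trunc (change -0.07, SE 0.08). DANCR was at 341 and 429 TPM (change 0.33, SE 0.07, limma adjusted p = 0.0773). After quantile normalization the median of this list was -0.05.

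The genes whose TPM pattern over the 6 libraries was most like that of each RNA were found by the root mean square difference of centred log2(TPM + 1). NORAD was nearest to KDM1B (0.0112) and MCFD2, TUG1 to LOC100294145 (0.0359) and ATP2C1, and OIP5-AS1 to ASH2L (0.0189) and PERP. NEAT1 was nearest to LIMS3-LOC440895 (0.0663) and SEC14L1. MALAT1 was nearest to MIR3615, at 0.354, and TUBA4A, which shared its low value in Clover replicate 1. KCNQ1OT1, whose log2(TPM + 1) hardly varies at its level, was nearest to CAV2 (0.0137) and HNRNPA1. The 9972 other genes averaging at least 5 TPM (9973 for KCNQ1OT1, itself below that level) were compared over 6 libraries, and the median difference was 0.23 for NORAD and 0.30 for TUG1 and NEAT1.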

How the data were processed

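Sample titles gave each group and replicate number, and the lines were made in triplicate. The authors trimmed reads with cutadapt 4.6, per the labels, and ran SQuIRE on hg38. The deposited gene tables hold TPM and read coverage (a signal per base) without counts, in the layout of StringTie. The deposited TE tables hold uniquely mapped counts and estimated counts, in which the authors' tool shared out multiply mapped fragments. TPM keeps no depth, so no reads could be recovered from it.

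TPM was summed by symbol, and 13300 genes averaging at least 1 TPM entered a limma 3.58.1 fit of log2(TPM + 1). TE fragments inside each gene span, and single TE loci by strand, were rounded and tested with edgeR 4.0.16 (quasi-likelihood) in R 4.3.3 where they reached 30 counts. The aligned fragments served as library size. Benjamini-Hochberg adjustment ran over all features tested (11469 gene bodies, 24809 TE entries), with calls at 0.05. TE starts were converted to 1-based positions, exons came from GENCODE 44, intervals were joined with bedtools 2.31.1, and sequences were read from hg38. The deposited spans and the canonical GENCODE transcripts overlapped for the 6 genes on hg38, but their ends were not the same. KCNQ1OT1 reached down to 2597308 in GENCODE and to 2608328 as deposited. OIP5-AS1 ended at 41322392 and 41313338, and MALAT1 at 65508073 and 65506512. TE sums and distances from the gene start used the deposited spans. Columns of the deposited tables other than these were not used.

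The members and gene lists were chosen with earlier results of these data known. Named list genes were the 2 with the largest mean TPM where none passed. Named loci were those called and the 3 with most fragments per gene. Alternatives were another pseudocount, other filters, quantile normalization, an intensity trend, TMM, DESeq2 1.42.0, uniquely mapped counts, any overlap with the gene span, omission of the top locus, a replicate block and omission of each library. Quantile normalization at the lower TPM limit, the settings for the Charlie4z locus and the split of each gene at its midpoint were chosen after seeing the data. Sums by stretch, exon or repeat class within genes and the count of genes low in 1 library were also not planned. The fits were tested on simulated data. The spread within a group exceeded counting noise 2.00 to 2.52 times (chi-square over its degrees of freedom) and may be technical. Some listed genes and loci are not reported here.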

Additional observations from a re-analysis of the deposited data

How the results depend on the processing

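In gene TPM the members kept their direction and stayed on their side of the threshold under the alternatives run, except that TUG1 passed with an intensity trend (change 0.63, limma adjusted p = 0.0437). With 1 library left out in turn, the changes ran from 0.04 to 1.53 for MALAT1, 0.28 to 0.57 for NEAT1, 0.56 to 0.68 for TUG1, 0.33 to 0.52 for NORAD and 0.31 to 0.45 for OIP5-AS1. For KCNQ1OT1, which lies under the TPM limit, libraries were not left out, and quantile normalization gave 0.12. The TPM fit called 2 genes, 60 with an intensity trend, 1 with a lower or no TPM limit, the smaller pseudocount or quantile normalization, and 1 to 4 with a library left out.

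The gene body fit called 35 genes. It called 80 with DESeq2, 10 with TMM, 53 and 120 with limits of 10 and 100 counts, 209 with no limit, 189 with uniquely mapped counts and 0 to 216 with a library left out. Of these, 34 were higher in the fit reported, 8 with DESeq2 and 1 with TMM. The MALAT1 change was -0.17 with DESeq2, -0.16 with TMM, -0.04 and -0.01 without Clover replicates 1 and 3 and -0.19 without Z18trunc replicate 3. NEAT1 passed with no limit (change 0.66), uniquely mapped counts (0.67) and without Z18trunc replicate 1 (0.88). TUG1 passed with the limit of 100 counts (0.49), no limit (0.49), uniquely mapped counts (0.54) and without Z18trunc replicate 1 (0.51), and NORAD with uniquely mapped counts (0.38). With a library left out, the ranges were -0.19 to 0.30 for MALAT1, 0.30 to 0.88 for NEAT1, 0.44 to 0.53 for TUG1, 0.27 to 0.38 for NORAD, 0.32 to 0.67 for KCNQ1OT1 and 0.25 to 0.43 for OIP5-AS1. The cause of these differences was not tested.

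The log2 ratios of CPM sums ranged from -0.17 to 0.26 for MALAT1 with a library left out, where it was -0.06 and -0.02 without Clover replicates 1 and 3. The ratio for TUG1 rose to 0.73 without its MLT1K locus. MALAT1 and NORAD hold 1 TE locus each, so that omission was not possible for them. The TE locus fit called 32 entries, 7 with TMM and 8 to 43 with a library left out. DESeq2 gave no adjusted p for Charlie4z. Of the list medians, that around KCNQ1OT1 was 0.016, 0.028 and 0.018 without Clover replicates 2 and 3 and Z18trunc replicate 3, within a range of -0.048 to 0.028 over the omissions. That of the genes flanking the other members was -0.068 with quantile normalization, and -0.019 and -0.028 without Clover replicate 2 and Z18trunc replicate 2, within a range of -0.028 to 0.079. That of the other noncoding RNAs was -0.046 with quantile normalization, and that of the nuclear speckle genes 0.145 with it and 0.127 without Clover replicate 2.

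No pairing by replicate number was seen in the deviations of TPM from the group mean. Same-numbered libraries correlated at -0.037 to 0.017 and differently numbered ones at -0.013 to 0.052. Such a correlation over all genes cannot exclude a pairing that touches few genes. With a replicate block the TPM fit called 1 gene, the gene body fit 10 and the locus fit 22, and no member changed its side of the threshold. Loci with few fragments limit what could be detected.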
